A study of Rattus norvegicus with 18 samples.

Results

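The miRNAs miR-375 and miR-7 were followed in the small RNA of rat gastrocnemius, a calf muscle. They were taken by name alone: every entry of the count table whose name after the species prefix rno- is miR-375, miR-7a, miR-7a-1, miR-7a-2 or miR-7b, whichever arm of the hairpin it stands for. This gave 6 entries of 909, of which 763 are known miRNAs and 146 are predicted candidates. At least 1 count was present for 5 of the 6 entries. Muscle came from male Brown Norway rats in 3 groups of 6, with 1 library per rat. Young AL rats were fed ad libitum and killed at 6 months (replicates 1 to 6). Old AL rats were fed ad libitum and killed at 28 months (replicates 7 to 12). Old CR rats were killed at 28 months after caloric restriction (CR) to 55% of the ad libitum intake from 2 months of age (replicates 13 to 18). All animals ate ad libitum before 2 months of age and were housed singly afterwards. From then on old CR rats had food for only a limited time each day, whereas ad libitum rats had access at all hours. The amount and the timing of food therefore differed together between the diets. There was no young group on CR. Each comparison asked how the miRNAs differed with age, with age and CR together, or with CR at the same old age. Between old CR and young AL, age and diet both differ and cannot be told apart.

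A miRNA is cut from a hairpin precursor, and 1 arm, the guide, is usually kept in the silencing complex while the other, the passenger arm, is degraded. Bases 2 to 8 of the guide, the seed, pair with target mRNAs. miR-375 is abundant in pancreatic islets, where it restrains insulin secretion and maintains the beta cells, and it is also found in the pituitary, in endocrine cells of the gut and in several epithelia. miR-7 is known for the brain, the pituitary and the islets. It is bound by the circular RNA Cdr1as and degraded by way of the long non-coding RNA Cyrano. The rat has 3 miR-7 hairpins. The hairpins of miR-7a-1 and miR-7a-2 give the same guide, miR-7a-5p, and differ in their passenger arms, and the third hairpin gives miR-7b. Neither miRNA is a muscle marker.

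The mature sequences are shown because the measurements turn on how alike they are. They are from RefSeq (GRCr8), where all 6 entries had a match, and run 5′ to 3′ with the seed in capitals.
rno-miR-375-3p: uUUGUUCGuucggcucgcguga
rno-miR-375-5p: gCGACGAGccccucgcacaaacc
rno-miR-7a-5p: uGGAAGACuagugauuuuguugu
rno-miR-7b: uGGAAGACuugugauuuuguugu
rno-miR-7a-1-3p: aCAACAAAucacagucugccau
rno-miR-7a-2-3p: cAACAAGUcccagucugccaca
The guides miR-7a-5p and miR-7b share the seed and 22 of 23 bases. They differ by the substitution A10U, with positions counted from 1 at the 5′ end and the base of miR-7a-5p given first. Their reads are therefore told apart by 1 base. The seed of miR-375-3p was found in no other of 693 mature rat names. The seed of miR-7a-1-3p was shared with rno-miR-3065-5p, an unrelated miRNA shown for comparison.
rno-miR-3065-5p: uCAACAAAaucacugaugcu

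The precursors are shown with their mature arms in capitals, from GRCr8. The hairpin of miR-375 lies at chr9:83906582-83906656 on the minus strand, overlapping the genes Cryba2 and LOC134480387 in the RefSeq annotation and beside Fev and Cfap65.
miR-375 hairpin: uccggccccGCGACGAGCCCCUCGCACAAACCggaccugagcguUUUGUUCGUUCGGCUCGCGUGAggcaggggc
The hairpin of miR-7a-1 lies at chr17:6278692-6278788 on the plus strand, within the gene Hnrnpk, which encodes a widely expressed RNA-binding protein.
miR-7a-1 hairpin: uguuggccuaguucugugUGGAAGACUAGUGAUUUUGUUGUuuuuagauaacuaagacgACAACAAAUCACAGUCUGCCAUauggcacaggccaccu
The hairpin of miR-7a-2 lies at chr1:142215800-142215894 on the plus strand, overlapping the long non-coding RNA gene LOC120099863, between the protein-coding genes Det1 and Aen.
miR-7a-2 hairpin: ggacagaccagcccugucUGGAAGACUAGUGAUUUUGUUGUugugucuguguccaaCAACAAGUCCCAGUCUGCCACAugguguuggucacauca
The hairpin of miR-7b lies at chr9:1167436-1167545 on the plus strand, overlapping the pseudogene Rpl35l3, between Dpp9 and Fem1a.
miR-7b hairpin: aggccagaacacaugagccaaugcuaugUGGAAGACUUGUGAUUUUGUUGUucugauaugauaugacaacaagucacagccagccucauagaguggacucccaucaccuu
Reads of miR-7a-5p cannot be assigned to either of its 2 loci, and of the pair only the passenger arms tell them apart.

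Library totals ran from 34940346 to 83110905 counts. Entries of the miR-1 family, which define striated muscle, together with predicted candidates holding the same counts, took 60.7% to 86.8% of them. The list of striated muscle miRNAs reached 70820 to 188296 CPM summed over its entries. That list holds the arms of miR-1 but not the other miR-1 family entries or the candidates. Counts listed under more than 1 name enter the library totals more than once. CPM are counts per 1000000 counts of the library, scaled with TMM, a method that sets the bulk of entries level between libraries. Old AL replicate 7 stood apart with a TMM factor of 2.14, against 0.639 to 1.37 in the other 17. Old AL replicates 7 and 8 had the lowest muscle sums of the 18 libraries, 70820 and 74441 CPM. Values without them, and without old CR replicates 17 and 18, are given where they bear on a result. In bulk tissue, fewer cells of a type and less RNA per cell cannot be told apart. The groups were sampled from separate rats, but the sources used here give no batch, so p-values measure only the spread between these libraries.

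The 6 entries covered a wide range of levels. The most abundant was the guide miR-7a-5p, with a mean of 258 CPM over the 18 libraries, rank 58 of the 763 known miRNAs. Its passenger arm miR-7a-1-3p followed at 7.16 CPM (rank 188), then miR-7b at 1.32 CPM (rank 293) and miR-375-3p at 0.532 CPM (rank 365). Ligation of adapters differs between sequences, so levels of different miRNAs are compared here only in rough order. miR-375-5p had 0 counts in all 18 libraries, against 726 counts of miR-375-3p. Of both arms together, 0 of 726 counts allows a share of miR-375-5p of up to 0.413%. A count of 0 in one library allows up to 0.0286 to 0.0898 CPM, depending on its depth.

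miR-375-3p, the guide arm of miR-375, was higher in both old groups than in young AL. In young AL it ranged from 0.0739 to 0.240 CPM with a median of 0.146, from 4 to 16 counts per library. In old AL it ranged from 0.197 to 2.59 CPM with a median of 0.595. In old CR it ranged from 0.277 to 0.832 CPM with a median of 0.394. No old CR library was as low as the highest young AL library, and 5 of the 6 old AL libraries also exceeded that value, while old AL and old CR overlapped. The 2 highest values were those of old AL replicate 8 (2.59 CPM, 217 counts) and old AL replicate 7 (1.74 CPM, 182 counts). Old AL varied most, with a coefficient of variation of 96.9%, against 38.4% in young AL and 44.2% in old CR. By sequencing, the paper lists miR-375-3p as higher in old AL than in young AL (DESeq2 log2 fold change 2.70, adjusted p = 0.000723). It also measured miR-375 by quantitative PCR (RT-qPCR) in gastrocnemius of young, old and old CR rats, relative to miR-101a-3p. Its methods give the old rats of that assay a younger age than the old AL rats sequenced. Its figure gives n = 4 to 6. The paper reports similar trends for the miRNAs not fully replicated, but no significant difference of miR-375 between the groups. The paper's text names the other arm of the hairpin for that assay, whereas its primer list names no arm. Scaled by miR-101a-3p, the sequencing differences from young AL had an edgeR adjusted p of 0.143 (old AL) and 0.136 (old CR).

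**Figure D1:**
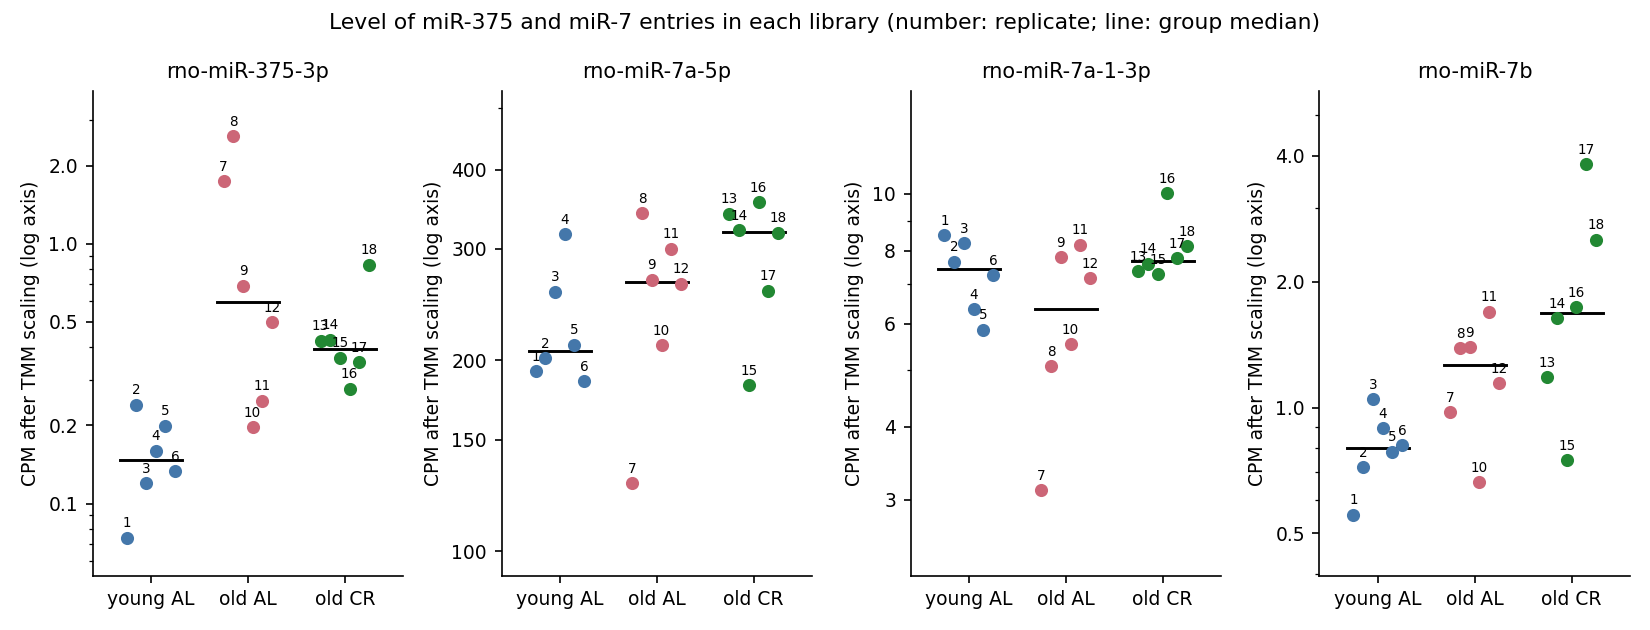
Level of miR-375-3p, miR-7a-5p, miR-7a-1-3p and miR-7b in each of the 18 libraries, in CPM after TMM scaling on a log axis, with the 3 groups along the horizontal axis. Each point is 1 rat, numbered by replicate, and the line is the group median. miR-375-3p in young AL stays at or below 0.240 CPM and all old CR points lie above it, whereas the groups overlap for the other entries.

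The difference of miR-375-3p between old AL and young AL was 6.23-fold (log2 fold change 2.64, SE 0.615, edgeR adjusted p = 0.0376), from a mean of 0.154 ± 0.0593 CPM (SD, n = 6 libraries) to 0.994 ± 0.963 CPM. It was the only one of 4 entries tested that was called in this comparison, where a call needed a change of at least 1.5-fold and an adjusted p no higher than 0.05. Among all 732 entries tested, 24 were called in either direction, which is 3.28%, and 0.956% were called higher in old AL. DESeq2 also called it (log2 fold change 2.70, adjusted p = 0.000723), with 11.5% of all entries called. By the exact permutation test (two-sided), its p was 0.00433 and its adjusted p 0.0880, and 0% of entries were called. Without old AL replicates 7 and 8 the log2 fold change was 1.38 and the call was lost (edgeR adjusted p = 0.102). It was also lost on leaving out any 1 library except old AL replicate 10 or 11, with a log2 fold change of 2.10 to 2.85 and an adjusted p of 0.0302 to 0.0873.

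Against young AL, miR-375-3p in old CR rose 2.84-fold (log2 fold change 1.51, SE 0.353, edgeR adjusted p = 0.0212), to a mean of 0.446 ± 0.197 CPM. In this comparison 68 of 730 entries tested were called, which is 9.32%, with 4.11% called higher in old CR. Of all entries, 5.75% had groups without overlap, 2.74% with old CR higher. DESeq2 gave 1.52 with an adjusted p of 0.00247, where it called 14.9% of entries. The exact permutation test gave its smallest possible p, 0.00216, with an adjusted p of 0.0385, and called 5.48% of entries. The call remained on leaving out each of the 12 libraries in turn, with a log2 fold change of 1.23 to 1.67. It was lost with library totals (edgeR adjusted p = 0.0562), with scaling by miR-101a-3p (0.136), with all 3 groups in 1 fit (0.0895) and without old CR replicates 17 and 18 together (log2 fold change 1.26, 0.0646).

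Between old CR and old AL no difference of miR-375-3p was shown. The log2 fold change was −1.15 with an SE of 0.598 (edgeR adjusted p = 0.437, exact permutation p = 0.346). Its sign rested on old AL replicates 7 and 8, without which it was 0.14 (edgeR adjusted p = 0.901). By median, the order of the groups was young AL, old CR, old AL, and the last 2 did not differ beyond their spread. The 2 comparisons with young AL share the same 6 control libraries.

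miR-7a-5p, the miR-7 guide that both miR-7a loci produce, did not pass the test in any comparison. It had 8573 to 28542 counts per library. Levels of 185 to 316 CPM were found in young AL, 128 to 341 CPM in old AL and 183 to 355 CPM in old CR, with medians of 207, 266 and 319 CPM. All 3 groups overlapped, and old AL replicate 7 had the lowest value. The log2 fold change was 0.16 in old AL against young AL (SE 0.220, edgeR adjusted p = 0.748). It was 0.38 in old CR against young AL (SE 0.188, edgeR adjusted p = 0.219), where 4 of 6 old CR libraries exceeded the young AL maximum. Between old CR and old AL it was 0.24 (SE 0.233, edgeR adjusted p = 0.743).

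The passenger arm miR-7a-1-3p, which reports the miR-7a-1 hairpin alone, had 275 to 684 counts per library. It ranged from 5.86 to 8.50 CPM in young AL, from 3.11 to 8.18 CPM in old AL and from 7.29 to 10.02 CPM in old CR, with medians of 7.45, 6.35 and 7.67 CPM. The groups overlapped, and no comparison passed the test. Its log2 fold change was −0.24 in old AL against young AL (SE 0.242, edgeR adjusted p = 0.627) and 0.13 in old CR against young AL (SE 0.138, edgeR adjusted p = 0.641). Between the old groups it was 0.39 (SE 0.224, edgeR adjusted p = 0.484). rno-miR-3065-5p, which shares its seed, was not called in any of the 3 comparisons either.

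miR-7a-2-3p, the passenger arm of the miR-7a-2 hairpin, was close to absent. It had 14 counts in all, namely 4 in old AL replicate 7, 1 in old AL replicate 12, 4 in old CR replicate 17 and 5 in old CR replicate 18. All 6 young AL libraries were at 0. It made up 0.178% of the 7861 counts of both miR-7a passenger arms (exact binomial 95% interval 0.0974% to 0.299%, which covers counting error only). It had too few counts to be tested against young AL. Between the old groups it gave a log2 fold change of 1.01 with an SE of 1.26 (edgeR adjusted p = 0.827), and DESeq2 gave no adjusted p.

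The 2 arms of miR-7a-1 kept their order in every library. The passenger arm took 1.97% to 4.23% of the counts of miR-7a-1-3p and miR-7a-5p together in young AL, 1.46% to 2.83% in old AL and 2.12% to 3.84% in old CR, and 2.66% over all libraries. Since miR-7a-5p can also hold reads of the miR-7a-2 locus, and ligation differs between sequences, this share is not that of the miR-7a-1 hairpin alone. The groups overlapped, and the ratio was not tested.

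miR-7b, which differs from miR-7a-5p at 1 base, was higher in old CR than in young AL. Young AL libraries held 0.554 to 1.05 CPM with a median of 0.798, old AL libraries 0.662 to 1.70 CPM with a median of 1.27, and old CR libraries 0.748 to 3.82 CPM with a median of 1.69. Old CR replicates 17 and 18 were highest, at 3.82 and 2.52 CPM from 218 and 212 counts. Old CR replicate 15, at 0.748 CPM, lay within the young AL range, and the other 5 old CR libraries lay above it. Of the old AL libraries, 4 of 6 exceeded the young AL maximum.

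Against young AL, miR-7b in old CR rose 2.41-fold (log2 fold change 1.27, SE 0.346, edgeR adjusted p = 0.0360), from 0.802 ± 0.165 to 1.94 ± 1.10 CPM. With miR-375-3p it made 2 of 4 entries called, beside the 9.32% of all entries named above. DESeq2 called both (miR-7b adjusted p = 0.00532), whereas the exact permutation test called miR-375-3p alone (miR-7b p = 0.0130, adjusted p = 0.0998). The edgeR call remained when old CR replicate 13 or 15 was left out, and it was lost on leaving out any other single library, with a log2 fold change of 0.96 to 1.48 and an adjusted p of 0.0164 to 0.0770. Without old CR replicates 17 and 18 it was 0.74 (edgeR adjusted p = 0.139). In old AL against young AL the log2 fold change of miR-7b was 0.60 (SE 0.238, edgeR adjusted p = 0.171). Between old CR and old AL it was 0.69 (SE 0.368, edgeR adjusted p = 0.452), where 0 of 5 entries were called by edgeR, by DESeq2 or by the exact permutation test, and none had an unadjusted edgeR p under 0.05. Over all 736 entries of that comparison edgeR called 2, which is 0.272%, DESeq2 called 2.58% and the permutation test 0%, and 12% had an unadjusted edgeR p under 0.05.

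**Figure D2:**
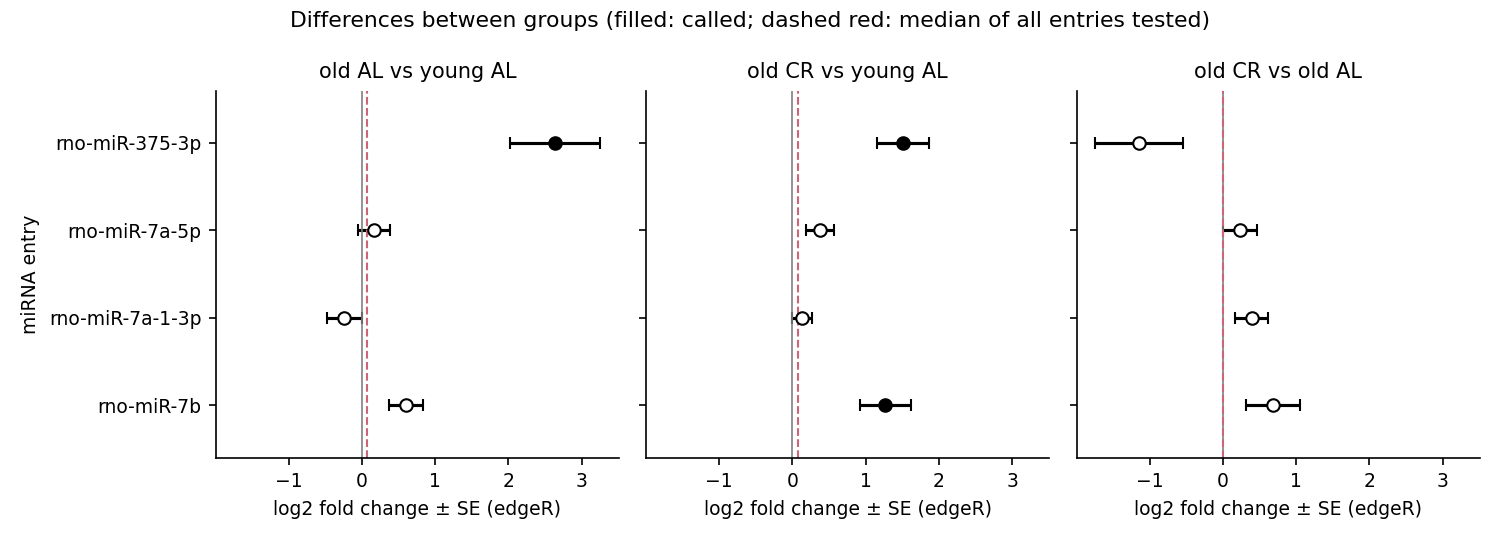
Log2 fold change of the 4 entries tested in every comparison, with the SE of edgeR as the error bar and 1 panel per comparison. Filled points are called, and the dashed line is the median of all entries tested. miR-375-3p is called in both comparisons with young AL (2.64 and 1.51) and miR-7b in old CR against young AL (1.27), and no entry is called in old CR against old AL.

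**Figure D3:**
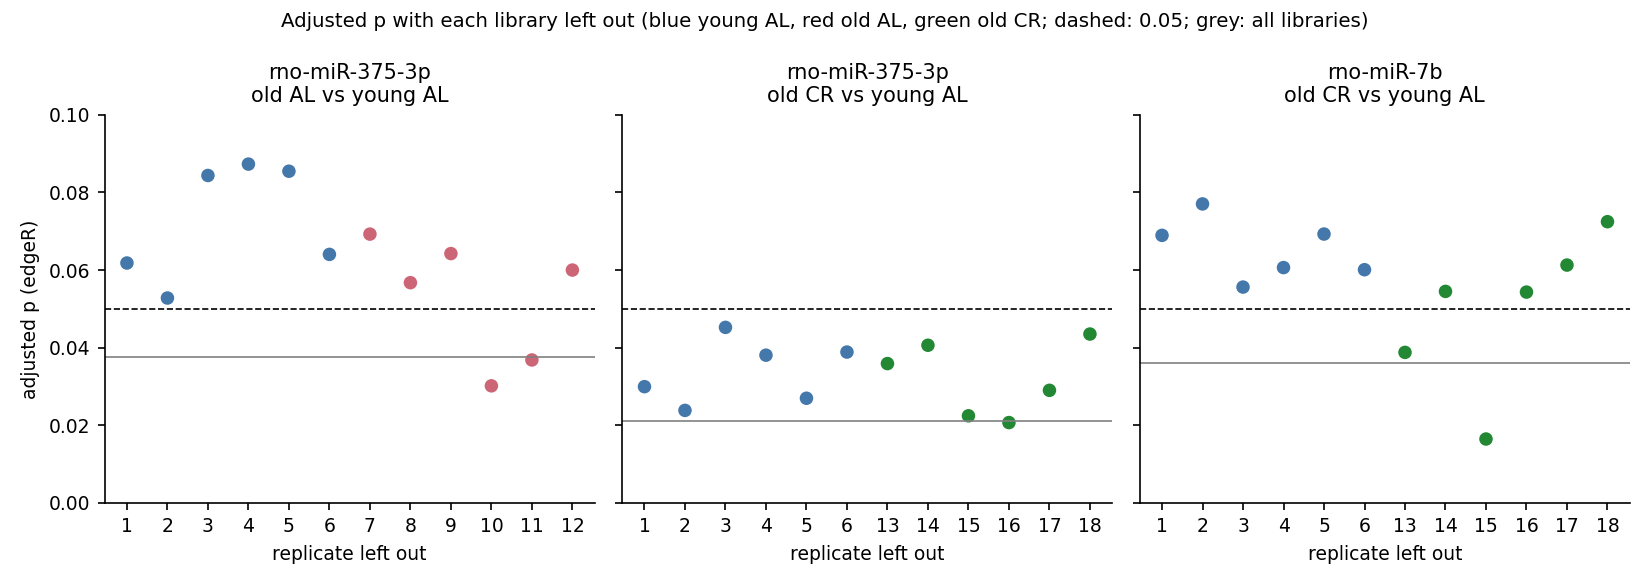
Adjusted p of edgeR for the 3 calls when each of the 12 libraries of a comparison is left out in turn, with the replicate left out along the horizontal axis, coloured by its group. The dashed line is 0.05 and the grey line the value with all libraries. miR-375-3p in old CR against young AL stays below 0.05 in all 12 settings, and miR-375-3p in old AL against young AL and miR-7b in old CR against young AL do so in 2 of 12.

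Relative to its near-twin, miR-7b was a small part of miR-7. It made up 0.281% to 0.437% of the counts of miR-7a-5p and miR-7b in young AL, 0.312% to 0.755% in old AL and 0.345% to 1.46% in old CR, with medians of 0.363%, 0.475% and 0.497%. The highest share was in old CR replicate 17, 1.46% (exact binomial 95% interval 1.28% to 1.67%), followed by old CR replicate 18 at 0.786% and old AL replicate 7 at 0.755%. The interval covers counting error only, not the spread between rats. The ranges of the groups overlapped, and the shares were not tested. Whether misread or mismatched reads of miR-7a-5p add to the counts of miR-7b was not tested either.

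Within a library, the ratio of miR-375-3p to miR-7a-5p needs no scaling between libraries. Its log2 median was −10.61 for young AL, −8.80 for old AL and −9.50 for old CR. This log2 ratio ranged from −11.2 to −9.67 in young AL, from −10.17 to −6.20 in old AL and from −10.29 to −8.57 in old CR. Both old groups thus overlapped young AL, unlike the CPM of miR-375-3p in old CR, and the ratio was not tested. For miR-375-3p over miR-7b the log2 medians were −2.47, −1.10 and −1.75. The ratio ranged from −2.98 to −1.56 in young AL and from −3.41 to −1.02 in old CR, so these groups overlapped.

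Some predicted candidates held nearly the same counts as a miR-7 or miR-375 entry. A first candidate had 8576, 13812 and 12524 counts in young AL replicates 3, 4 and 6, where miR-7a-5p had 8573, 13842 and 12538. In the other 15 libraries it had 0 counts, although miR-7a-5p had 10025 to 28542 there. DESeq2 called it lower in each old group than in young AL (adjusted p = 1.13e-20 and 1.14e-20). It was not called by edgeR (adjusted p = 0.146 and 0.109), and the exact permutation test gave p = 0.0606 and 0.123. A second candidate lay within 2 counts of miR-375-3p in the 2 libraries where it was present, with 41 counts beside 43 in old AL replicate 9 and 22 beside 20 in old CR replicate 15. Another candidate was present in 1 library alone, old AL replicate 11, with 12 counts beside 11, and there it also matched 24 other known entries. How the table came to list the same counts under 2 names was not tested.

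**Figure D4:**
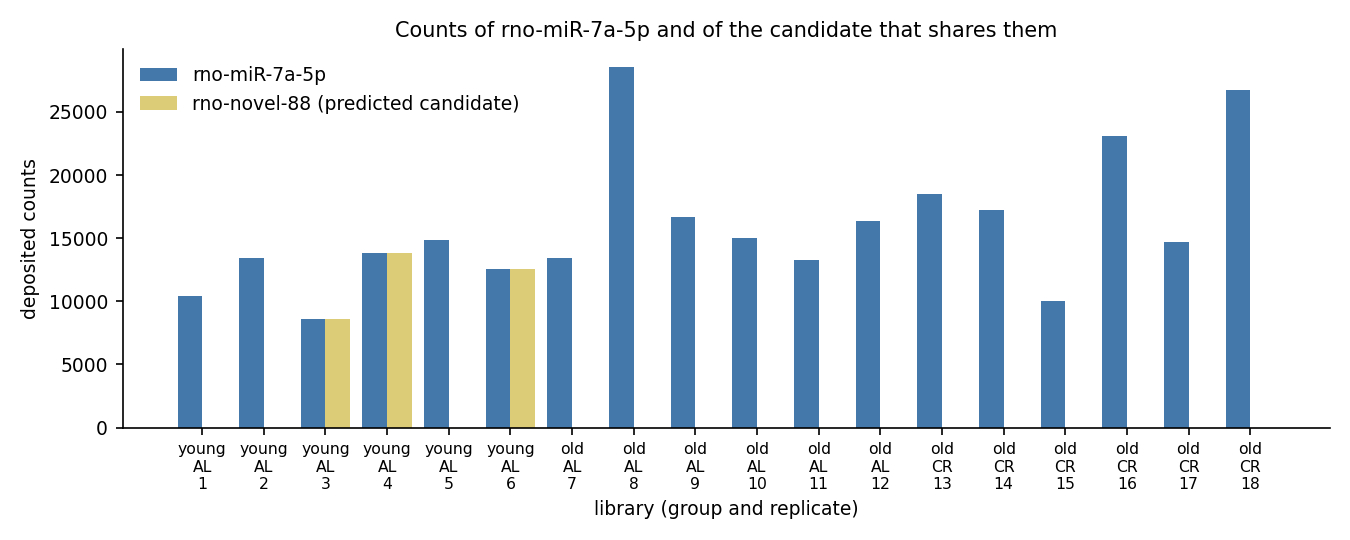
Deposited counts of miR-7a-5p and of the predicted candidate with the same counts in each of the 18 libraries. The candidate holds nearly the counts of miR-7a-5p in young AL replicates 3, 4 and 6 and is at 0 in the other 15 libraries, where miR-7a-5p has 10025 to 28542 counts.

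Other miRNAs of endocrine cells were read from a list of 17 entries, of which 14 were tested. miR-182, a member of the miR-183 cluster and the most abundant of them, rose in old AL against young AL (log2 fold change 1.15, SE 0.278, edgeR adjusted p = 0.0440), from 14.3 to 31.6 CPM. It was the only one edgeR called in that comparison, 1 of 14 beside 3.28% of all entries (0.956% higher), and edgeR called none in the other 2 comparisons. DESeq2 called 3 higher in old AL than in young AL (miR-182, miR-183-5p and miR-96-5p), 3 higher in old CR than in young AL (miR-183-5p, miR-200a-3p and miR-429) and none between the old groups. Of all entries, DESeq2 called 4.92%, 6.71% and 1.9% higher in these 3 comparisons. All 14 had a log2 fold change above 0 in both comparisons with young AL, with a median of 0.93 and 2.45, beside medians of 0.06 and 0.08 over all entries, of which 56.6% and 55.8% were above 0. These are not 14 separate measurements, since some are 2 arms of 1 hairpin or members of 1 cluster. The list also holds the miR-200 family, to which miR-200a-3p and miR-429 belong. This family is found in epithelia generally, so the list does not mark endocrine cells alone. The summed level of the list was 12.3 to 39.3 CPM in young AL, 43.9 to 71.0 CPM in old AL and 27.2 to 264 CPM in old CR. The old AL sums, which include miR-182, did not overlap those of young AL. Of all single entries, 3.55% had these 2 groups without overlap, 0.82% with old AL higher. The top old CR value was that of replicate 14, which had 0.427 CPM of miR-375-3p and also the highest sum of epithelial miRNAs (1766 CPM). The next highest old CR sum was 54.6 CPM, in replicate 18. Of the 2 libraries with most miR-375-3p, old AL replicate 8 had the lowest endocrine sum in its group (43.9 CPM) and old AL replicate 7 the second highest (63.5 CPM).

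The list of miRNAs of the exocrine pancreas, a neighbour of the islet, was near the limit of detection, at 0.314 to 1.68 CPM in sum, and neither edgeR nor DESeq2 called any of its entries. Its most abundant entry, miR-217-5p, averaged 0.387, 0.602 and 0.683 CPM in young AL, old AL and old CR. miR-671 directs the cleavage of Cdr1as, the partner of miR-7, through 1 of its arms. The miR-671 entry here names no arm, so which arm it counts is not known. It was at 2.30 CPM in young AL, 2.35 CPM in old AL and 2.30 CPM in old CR, and was not called in any comparison. Cdr1as itself is not a miRNA and was not measured here.

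Many neuronal miRNAs were also higher in old CR than in young AL. Of 21 entries, 17 were tested, and edgeR called 11 higher in old CR against young AL, beside 9.32% of all entries called (4.11% higher), with a median log2 fold change of 2.27 over the 17. Of the 6 that were not called, miR-138-1-3p (−0.26) and miR-138-2-3p (−0.41) were below 0. The 11 were both arms of miR-124 and of miR-9a, miR-9b-3p, miR-9b-5p, miR-129-5p, miR-129-1-3p, miR-129-2-3p, miR-346 and miR-598-3p. These are not all separate measurements, and the sums below count some reads again. miR-9a-5p and miR-9b-3p held nearly the same counts in all 18 libraries, and miR-129-1-3p and miR-129-2-3p identical counts in 16. miR-9a-5p, a brain miRNA, rose from 12.0 to 58.0 CPM (log2 fold change 2.27, edgeR adjusted p = 0.0133). Of the same list, in old AL against young AL, miR-129-1-3p (log2 fold change 2.43, edgeR adjusted p = 0.0353) and miR-598-3p (1.21, 0.0353) rose. There edgeR called 0.956% of all entries higher, and DESeq2 called 5 of the list higher beside 4.92% of all entries. In old CR against old AL edgeR called none, beside 0.272% of all entries. DESeq2 called miR-129-5p, miR-9a-3p, miR-9a-5p and miR-9b-3p higher, beside 1.9% of all entries. The summed level was 41.4 to 128 CPM in young AL, 71.1 to 139 CPM in old AL and 87.0 to 437 CPM in old CR. The 2 libraries with most miR-7b, old CR replicates 17 and 18, also had the highest neuronal sums, 437 and 331 CPM, and old CR replicate 15, with least miR-7b in its group, had the lowest in its group. The part of these miRNAs in the result for miR-7b was not tested.

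**Figure D5:**
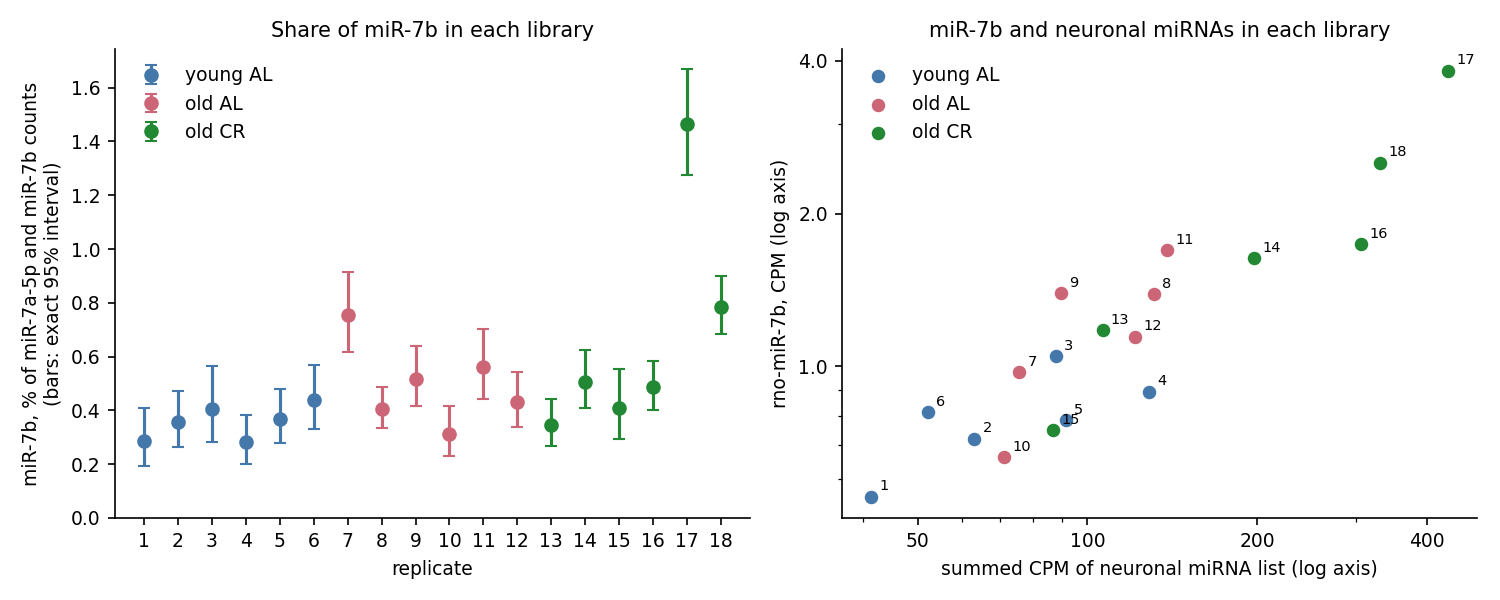
Left, share of miR-7b among the counts of miR-7a-5p and miR-7b in each library, with exact binomial 95% intervals. Right, level of miR-7b against the summed level of the neuronal list, both in CPM on log axes. Old CR replicates 17 and 18 hold both the highest miR-7b levels (3.82 and 2.52 CPM) and the highest neuronal sums (437 and 331 CPM).

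The likeness of patterns was measured by Spearman's rho of log2 CPM over the 18 libraries, among 318 known miRNAs with at least 1 CPM on average, as a description in which all points share the libraries and their scaling. For miR-375-3p the highest values were those of miR-183-5p (0.682), miR-3553 (0.682), miR-330-3p (0.678), miR-200b-3p (0.653) and miR-122b (0.649). miR-3553 held nearly the same counts as miR-183-5p. With Pearson's r none of these 5 stayed among the highest 5. For miR-7a-5p they were miR-106b-5p (0.868), miR-101b-3p (0.835), miR-101a-3p (0.818), miR-218a-5p (0.810) and miR-29b-3p (0.802). For miR-7b they were miR-9a-5p (0.833), miR-9b-3p (0.833), which holds nearly the same counts, miR-218a-5p (0.812), miR-218b (0.800) and miR-200a-3p (0.789). The 2 guides miR-7a-5p and miR-7b had a rho of 0.701 with each other, whereas miR-375-3p had 0.356 with miR-7a-5p and 0.542 with miR-7b.

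The level of liver miRNAs is given because miR-122b stood near miR-375-3p. Of 7 entries, edgeR called 3 in old CR against young AL, namely miR-122-5p, miR-122-3p and miR-122b, all higher, beside 9.32% of all entries called (4.11% higher), and it called none in the other comparisons. DESeq2 called the same 3 higher in old AL (beside 4.92% of all entries) and in old CR (6.71%) against young AL. It called none between the old groups. miR-122-5p, the most abundant miRNA of hepatocytes, averaged 12.5 CPM in young AL, 255 CPM in old AL and 145 CPM in old CR. The list summed to 46.1 to 112 CPM in young AL, 118 to 1270 CPM in old AL and 213 to 366 CPM in old CR. Of the 2 libraries with most miR-375-3p, old AL replicate 8 had the lowest liver sum in its group, 118 CPM, and old AL replicate 7 had 401 CPM, above the group median of 349 CPM.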

How the data were processed

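The authors trimmed adapters with cutadapt 1.2.1 and low-quality ends with Sickle, identified known miRNAs and predicted candidates with miRDeep2, and deposited raw counts from featureCount for every entry in each library. The submitters' processing notes also name Bowtie2 2.4.0 and Rnor_6.0. No source used here gives the miRBase release or the treatment of reads matching more than 1 entry. The deposited counts carry no coordinates. Those printed are from RefSeq GRCr8.

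Entries with at least 10 counts over the 12 libraries of a pair of groups were scaled with TMM. The test was the robust quasi-likelihood test of edgeR 4.0.16 (R 4.3.3), two-sided. p was adjusted by Benjamini-Hochberg over all entries tested. An SE is the size of the log2 fold change divided by the square root of F. Levels are CPM with TMM over all 18 libraries, and 0.5 counts were added for logs. The study's tool, DESeq2 1.42.0, and an exact permutation test were alternatives, beside other scalings, filters and libraries left out. Scripts were tested on simulated data. All 45 pairs of replicates differed beyond counting noise (chi-square per degree of freedom at least 1214).

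Described were every miR-375 and miR-7 entry and, without their names, the candidates sharing their counts (within 10% or 2 counts). Named were the 5 most alike by rho, seed sharers, called list members, the most abundant entry of each list and miR-101a-3p. Also named, after their values were seen, were list members called by DESeq2 alone and 2 neuronal entries below 0. Lists covered endocrine, exocrine pancreas, neuronal, Cdr1as, liver, stratified epithelium, leukocyte, erythroid and striated muscle miRNAs. Members and lists were chosen with earlier results of these data known.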

Additional observations from a re-analysis of the deposited data

Results flagged for a closer look

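In 24 groups of 6 libraries, 3 values stood apart from the rest of their group by Dixon's test, which compares the gap to the nearest library with the whole range. The threshold passes 5% of groups by chance, so that about 1 such value is usual in 24. miR-375-3p in old CR was highest in replicate 18, at 0.832 CPM, with a gap of 0.730 of the range. miR-7a-1-3p in old CR was highest in replicate 16, at 10.02 CPM (0.693 of the range). The log2 ratio of miR-7a-1-3p over miR-7a-5p in old AL was lowest in replicate 8, at −6.07 (0.733 of the range), the library with the most miR-375-3p.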

How the results depend on the processing

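No paired analysis was possible because the groups share no replicate numbers and the labels give no pairing. In the deposited counts, the columns of young AL replicates 1 and 2 are numbered out of the order of the other libraries. What that reflects is not stated, and the pair was also left out together. In old AL against young AL, the log2 fold change of miR-375-3p lost its call with library totals (3.15, edgeR adjusted p = 0.171), totals without the miR-1 family (2.83, 0.0700), scaling by miR-101a-3p (2.75, 0.143), the exact permutation test (2.10, 0.0880), young AL replicates 1 and 2 left out (2.66, 0.103) and, chosen after seeing the data, old AL replicates 7 and 8 left out (1.38, 0.102), and was 2.10 to 2.85 without 1 library. In old CR against young AL it lost its call with library totals (1.47, 0.0562), miR-101a-3p (1.46, 0.136), a single fit over the 3 groups (1.51, 0.0895) and old CR replicates 17 and 18 left out (1.26, 0.0646, chosen after seeing the data). miR-7b in old CR against young AL lost its call with library totals (1.22, 0.114), totals without the miR-1 family (1.24, 0.0730), miR-101a-3p (1.14, 0.150), the exact permutation test (1.10, 0.0998), young AL replicates 1 and 2 left out (1.18, 0.151) and old CR replicates 17 and 18 left out (0.74, 0.139), and was 0.96 to 1.48 without 1 library. The causes were not tested. In old CR against old AL the log2 fold change of miR-375-3p turned from −1.15 to 0.14 without old AL replicates 7 and 8. Library totals moved the median log2 fold change of all entries from 0.06 to 0.23 in old AL against young AL, from 0.08 to −0.05 in old CR against young AL and from 0.01 to −0.27 in old CR against old AL. Relative to those medians miR-375-3p was at 2.92, 1.52 and −1.42, and miR-7b at 0.42, 1.28 and 0.84.

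Of all entries, 24 were called in old AL against young AL, but 0 with library totals (116 at an unadjusted edgeR p under 0.05) and by the exact permutation test (157 at its unadjusted p), 13 without the miR-1 family, 3 with miR-101a-3p, 84 with DESeq2, 37 with filterByExpr, 38 in the single fit, 53 with known miRNAs only and 9 to 20 without 1 library. In old CR against young AL 68 were called, but 22 with miR-101a-3p, 109 with DESeq2, 40 by the permutation test, 39 without old CR replicates 17 and 18 and 45 to 67 without 1 library. In old CR against old AL 2 were called, but 19 with DESeq2, 0 to 3 without 1 library, and 0 with upper-quartile factors, library totals, totals without the miR-1 family, miR-101a-3p, the exact permutation test, no robust estimation, known miRNAs only, or old AL replicates 7 and 8 or old CR replicates 17 and 18 left out (41 to 113 at an unadjusted p under 0.05 of each test). Among the 5 miRNAs most like each entry, Pearson's r kept 0 for miR-375-3p, 3 for miR-7a-5p and 2 for miR-7b. Depth limits miR-375-5p (0 counts), miR-7a-2-3p (14 counts) and miR-375-3p (4 to 16 counts per young AL library).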

Other observations

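miRNAs of other cell types that a muscle sample can hold were read in the same way, and edgeR called no entry in any comparison. DESeq2 called the epithelial miR-203a-5p and miR-203b-3p higher in old CR against young AL, beside 6.71% of all entries. It also called the erythroid miR-144-5p higher in old AL against young AL, beside 4.92% of all entries. The 5 entries of stratified epithelium summed to 29.0 to 93.0 CPM in young AL, 57.6 to 377 CPM in old AL and 44.4 to 1766 CPM in old CR, and the most abundant, miR-203a-3p, averaged 19.1, 48.7 and 170 CPM. The 8 entries of leukocytes summed to 125 to 172 CPM, 111 to 609 CPM and 109 to 241 CPM, led by miR-150-5p at 130, 146 and 121 CPM. The 4 erythroid entries summed to 3.31 to 10.1 CPM, 6.53 to 11.7 CPM and 3.48 to 9.53 CPM, led by miR-451-5p at 5.77, 6.84 and 4.81 CPM. Old AL replicate 8, the library with the most miR-375-3p, held the highest leukocyte sum of all 18 (609 CPM) and the highest epithelial sum of its group (377 CPM). The part of these miRNAs in the level of miR-375-3p was not tested. Of the 14 entries of striated muscle, 11 were tested and none was called by edgeR or DESeq2, and miR-1-3p averaged 93565, 79968 and 110997 CPM.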
